A study of Mus musculus with 2 samples.

Results

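Among cultured bone marrow derived macrophages, a small group of cells with Atp6v0d2 RNA was described, and its genes were compared between a culture given truncated Tamm-Horsfall protein (THP) and a culture given vehicle. A cell belonged to the group, called Atp6v0d2 cells here, with at least 2 Atp6v0d2 UMIs (unique molecular identifiers, each standing for 1 captured RNA molecule) and at least 1.5 per 10000 of its UMIs from Atp6v0d2. It also had under 10 UMIs per 10000 of Retnlg, a neutrophil gene, and under 10 per 10000 of Rsad2, Ifit1, Ifit2 and Ifit3 together, which are interferon-stimulated genes. The group held 760 of 23101 kept cells: 388 of 12123 with THP (3.20%, exact 95% interval 2.89% to 3.53%) and 372 of 10978 with vehicle (3.39%, 3.06% to 3.74%). The intervals of the shares overlapped.

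Marrow of wild-type 129Sv mice was grown in medium with 50 ng/ml M-CSF, the growth factor that turns marrow precursors into macrophages, and was treated on day 7 for 18 h with 1 µg/ml of a THP that does not polymerize, or with its vehicle, 5% dextrose. THP, also called uromodulin, is a protein of the kidney tubule. The labels name no RANKL, the cytokine that osteoclast cultures receive. There was 1 droplet library per group and the number of mice is not given, so no difference between the libraries has a replicate check, no p-value was computed, and treatment cannot be told apart from dish or library preparation.

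Atp6v0d2 encodes a subunit of the vacuolar proton pump (V-ATPase) that osteoclasts and some macrophages use, and mice without it have osteoclasts that fuse poorly. Osteoclasts are bone-resorbing cells made by fusion of macrophage precursors under M-CSF and RANKL: they acidify the bone surface with this pump, carbonic anhydrase and a chloride exchanger, and digest its collagen with cathepsin K. Mmp12, macrophage elastase, is a secreted protease of tissue macrophages. Lipid-laden macrophages of fat, arteries and injured tissue share with osteoclasts a lysosomal programme that includes Gpnmb, Lgals3 and Cd63.

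Atp6v0d2 and the limits on Retnlg and interferon genes chose the cells, so their values describe the choice. The Atp6v0d2 gene lies on chromosome 4, 19876841 to 19922605 on the minus strand (GRCm38, GENCODE M21). Its median was 3.22 UMIs per 10000 in THP cells and 3.31 in vehicle cells, and the summed level was 378 and 382 CPM (a gene's counts per 1000000 UMIs of the group). Any Atp6v0d2 UMI was found in 1151 and 1041 kept cells, of which 480 and 392 had a single one, and 280 and 270 had 2 or more but stayed under 1.5 per 10000. The Retnlg limit then removed 1 and 3 cells and the interferon limit 2 and 4. Just inside the threshold, 74 THP and 68 vehicle cells with 1.5 to 2 per 10000 held Mmp12 at 3683 and 3563 CPM. Just outside it, 109 and 92 cells with 1 to 1.5 per 10000 held Mmp12 at 2311 and 3271 CPM, so the threshold crosses a range of levels and does not mark a gap. The group reads as a range of Atp6v0d2 levels for that reason.

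Depth did not match between the groups of cells. Atp6v0d2 cells had a median of 25284.5 UMIs (THP) and 28744.5 (vehicle), and 8742 comparison macrophages had 19904 and 21369. The comparison macrophages were cells with 0 Atp6v0d2 UMIs, at least 2 UMIs and 1.5 per 10000 of Adgre1 (F4/80, a macrophage surface marker), and the same 2 upper limits: 5285 with THP and 3457 with vehicle. Of Atp6v0d2 cells, 7.99% (THP) and 14.8% (vehicle) were among the 5% of kept cells with most UMIs, where droplets with more than 1 cell collect. No droplet was removed as a doublet. Across libraries 42 barcodes were shared, and 1 of them was an Atp6v0d2 cell in both.

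The identity of the cells was checked against macrophage genes first. At least 2 UMIs of Adgre1 were present in 92.8% (THP) and 93.8% (vehicle) of Atp6v0d2 cells. Adgre1 itself was lower than in comparison macrophages, which Adgre1 had chosen, at 284 against 494 CPM in the THP library and 261 against 399 in the vehicle library. Csf1r, the M-CSF receptor, was at 251 (THP) and 280 (vehicle) CPM against 288 and 307, and Cd68 was higher, at 823 and 702 against 413 and 374. At least 2-fold lower than in comparison macrophages were 4.08% (THP) and 3.75% (vehicle) of all genes with 10 CPM or more in either group. Of 14 macrophage genes, Adgre1 among them, 5 (THP) and 6 (vehicle) were at least 2-fold lower. Only 1 and 0 were at least 2-fold higher, and the median log2 ratios were -0.50 and -0.39. Markers of other marrow cells were low: all 8 dendritic-cell genes were under 1 CPM in the THP library, and Ly6g was at 0 UMIs in THP and at 0.0863 CPM in vehicle cells. The summed level of 10 neutrophil genes was 2204 and 2096 CPM, below the 4546 and 4131 CPM of comparison macrophages and far below the 358736 and 304311 CPM of cells with at least 10 Retnlg UMIs per 10000 and no Adgre1 UMI. How much of the neutrophil RNA was free RNA in the droplets was not tested.

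Mmp12, on chromosome 9 at 7344381 to 7369499 on the plus strand, was not part of the rule and was nearly universal in the group. At least 2 Mmp12 UMIs were present in 378 of 388 THP and 361 of 372 vehicle Atp6v0d2 cells, against 26.1% and 32.1% of comparison macrophages. After each cell was thinned to 5000 UMIs, an Mmp12 UMI remained in 96.6% of 385 THP and 96.5% of 367 vehicle cells (97.9% and 98.1% before thinning), and 3 and 5 shallower cells were left out. In Retnlg cells, which should lack it, the thinned share was 6.76% and 9.09% (median depth before thinning 2596 and 2419 UMIs), and in comparison macrophages 22.2% and 28.6%. The summed level was 4952 (THP) and 5212 (vehicle) CPM against 169 and 269 CPM in comparison macrophages. Per cell, the quartiles of Mmp12 lay at 26.1 and 71.2 UMIs per 10000 in THP cells and at 27.3 and 73.3 in vehicle cells.

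Other genes followed the same ordering. In cells with any Adgre1 UMI, Gpnmb, a lysosomal and surface glycoprotein, stood at 176 CPM (THP) and 152 CPM (vehicle) where Atp6v0d2 was absent. It was at 2091 and 1868 CPM with 1.5 to 3 Atp6v0d2 UMIs per 10000, at 3644 and 2869 with 3 to 6, and at 5469.5 and 4621 with 6 or more. Maf, a transcription factor of resident-type macrophages, ran the other way, from 308 and 396 CPM without Atp6v0d2 to 63.6 and 86.2 CPM at 6 or more. Dcstamp, the fusion receptor of osteoclasts and giant cells, did not follow the order of Atp6v0d2 to the top: in the THP library it was at 116, 106 and 82.2 CPM over the same 3 bins, and in the vehicle library at 117, 202 and 143. Depth did not follow the order either, with bin medians between 25084 and 29984 UMIs among Atp6v0d2 cells.

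**Figure D1:**
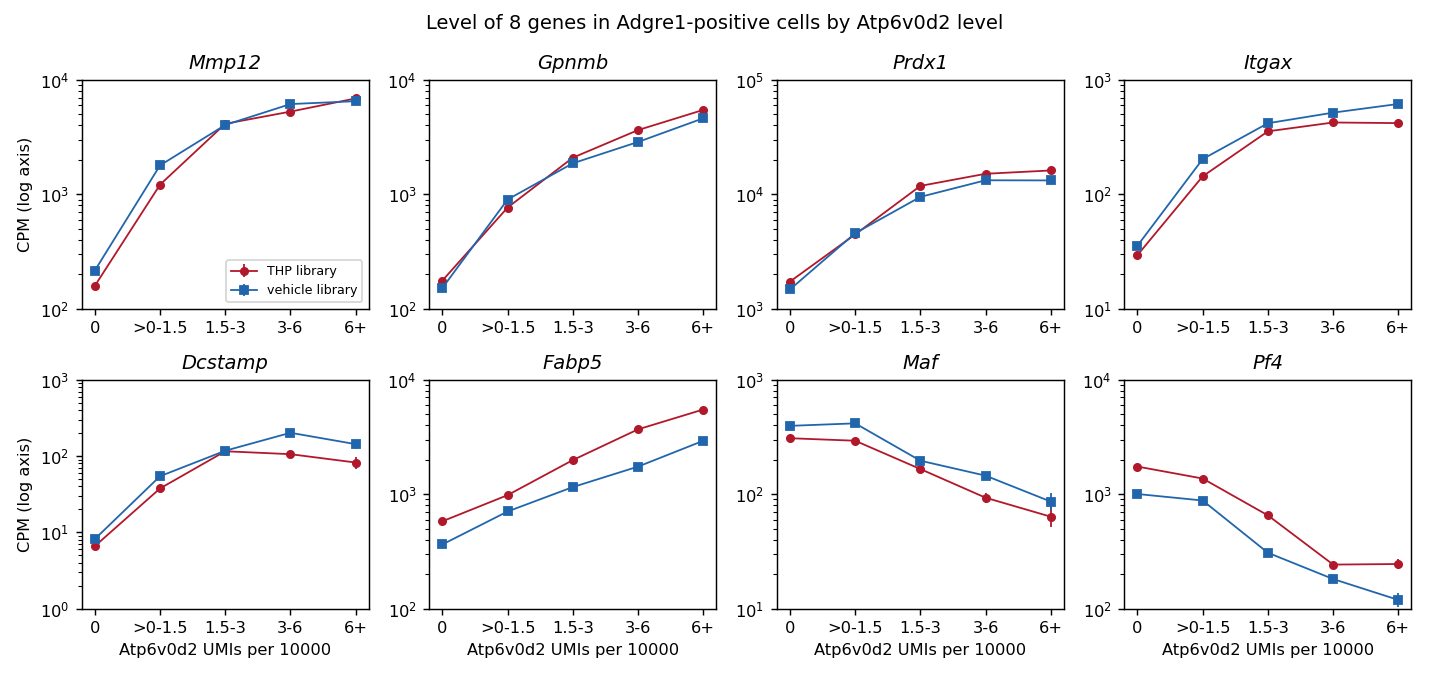
Level of 8 genes (CPM, log axis) in cells with at least 1 Adgre1 UMI, binned by Atp6v0d2 UMIs per 10000, in the THP library (circles) and the vehicle library (squares); bars are exact 95% Poisson intervals on counts. Mmp12, Gpnmb, Prdx1, Itgax and Fabp5 are higher in the upper bins than in cells without Atp6v0d2 and Maf and Pf4 are lower, in both libraries, and Dcstamp peaks in a middle bin.

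Over all kept cells, the 10 genes whose per-cell level ranked most like Atp6v0d2 were Itgax, Anpep, Mmp12, Rnf128, Gpnmb, Rhoc, Prdx1, Cd36, Il7r and Syngr1, out of 7328 genes compared. Spearman's rho ran from 0.385 to 0.476 in 12123 THP cells and from 0.423 to 0.55 in 10978 vehicle cells. Cells share a library and differ in depth, so these values only describe. Within Atp6v0d2 cells the relations were weaker: rho of Atp6v0d2 with Mmp12 was 0.264 (THP) and 0.311 (vehicle), and with Gpnmb 0.396 and 0.294.

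Against comparison macrophages, 335 of 7620 tested genes (4.40%) were at least 2-fold higher and 311 (4.08%) at least 2-fold lower in Atp6v0d2 cells of the THP library. In the vehicle library 313 of 8064 (3.88%) were higher and 302 (3.75%) lower. A gene counted as tested with at least 10 CPM in 1 or both groups, and ratios were taken on CPM + 1. Both libraries shared 248 of the higher and 198 of the lower calls. With TMM factors, which scale on the bulk of genes, the split moved to 413 higher and 207 lower (THP) and 389 higher and 198 lower (vehicle). The cells were chosen by a gene in the same counts, so these numbers describe the group and test nothing.

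The 15 markers with the highest ratio in the library where it was smaller, at 50 CPM or more, were Atp6v0d2, Mmp12, Dcstamp, Gpnmb, Itgax, Anpep, Il7r, Rnf128, Matk, F10, Prdx1, Plk2, Il11ra1, Syngr1 and Gpc1. Itgax encodes CD11c, an integrin of dendritic cells, alveolar macrophages and fat macrophages, and was at 391 (THP) and 485 (vehicle) CPM against 32.4 and 44.8. Anpep, the surface aminopeptidase CD13, was at 121 and 137 CPM against 11.8 and 13.2. Il7r, the interleukin-7 receptor, was at 246 and 297 CPM against 21.8 and 32.8. Of 5 other T and NK cell genes, 5 (THP) and 4 (vehicle) were under 1 CPM in Atp6v0d2 cells. Prdx1, a peroxide-removing enzyme, was at 13710 and 11491 CPM against 1846 and 1740. Rnf128, an E3 ubiquitin ligase, was at 216 and 252 CPM against 27.6 and 31.5, and F10, coagulation factor X, at 111 and 113 against 12.0 and 15.9.

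Genes of lipid-associated macrophages were higher than in comparison macrophages. Of 14 such genes, 11 were at least 2-fold higher in Atp6v0d2 cells in each library, beside 4.40% (THP) and 3.88% (vehicle) of all tested genes. The median log2 ratio of the 14 was 2.02 (THP) and 1.92 (vehicle). Fabp5, a fatty-acid carrier, was at 3111 (THP) and 1633 (vehicle) CPM against 621 and 401. Lgals3, galectin-3, was at 9185 and 7822 CPM against 1896 and 2100.1. Cd36, a scavenger receptor for oxidized lipid, was at 1115.5 and 1713 CPM against 324 and 383, and Trem2, a lipid-sensing receptor, at 1359 and 1293 against 449.9 and 451. Cholesterol synthesis genes were not part of this picture: 0 of 16 were 2-fold apart in either direction in either library.

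Lysosomal genes were also higher than in comparison macrophages. Over all tested genes 4.40% (THP) and 3.88% (vehicle) were at least 2-fold higher. Of 24 lysosomal genes, 10 (THP) and 9 (vehicle) were at least 2-fold higher and none 2-fold lower, with medians of 0.89 and 0.83. The cathepsins Ctsd, at 6469.7 and 5429.6 CPM against 1913 and 1987, and Ctss, at 2209.7 and 2159 against 503 and 559, were among them. Of 16 tested V-ATPase subunit genes other than Atp6v0d2, 3 were 2-fold higher in each library and none lower. One of them was Tcirg1, the a3 subunit that osteoclasts place at the bone surface, at 208 and 209 CPM against 75.1 and 76.7. Mitf, the transcription factor of osteoclasts and lysosomal genes, was at 73.1 (THP) and 106 (vehicle) CPM against 44.5 and 42.9. Of the 4 listed factors of its family (MiT/TFE), 0 (THP) and 1 (vehicle) were at least 2-fold higher. The median log2 ratios of the 4 were 0.14 and 0.32.

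The genes furthest below comparison macrophages were Ly6a, Tmem176b, Ccl7, Ifitm1, Pf4, Ms4a6b, Ccr2, Clec4a1, Cx3cr1, F13a1, Zfp36l1, Dab2, Ms4a6c, Ly6c2 and Hmgb2. Several mark monocytes or recently monocyte-derived cells. Ccr2, the receptor that brings monocytes out of marrow, was at 21.8 (THP) and 46.3 (vehicle) CPM against 88.7 and 201. Ly6c2 was at 47.8 and 55.5 CPM against 156 and 232, and Pf4, platelet factor 4, at 438 and 229.9 against 1949 and 1252. Cell division genes were lower too. Of 16 G2 and M phase genes, 15 (THP) and 14 (vehicle) were at least 2-fold lower, beside 4.08% and 3.75% of all tested genes. Mki67 was at 101 and 221 CPM against 255 and 517. A thinned Mki67 UMI was present in 26.0% and 36.5% of Atp6v0d2 cells (46.6% and 54.8% before thinning) and in 53.5% and 66.1% of comparison macrophages. Retnlg cells held one in 8.04% and 9.58% before thinning, and the 74 and 77 deep enough to thin in 28.4% and 36.4%. Those deeper cells also held Elane, a gene of neutrophil precursors, in 21.6% and 32.5% after thinning, more often than all Retnlg cells did before it, so they are no blank for a gene of dividing cells. The part of free RNA in the Mki67 shares was not tested. Fewer cells with a gene and less RNA per cell cannot be told apart in the summed levels.

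The osteoclast name held only for some of its genes. Acp5 (TRAP, the acid phosphatase used to stain osteoclasts) was at 179 (THP) and 108 (vehicle) CPM against 28.3 and 22.9 in comparison macrophages, and had a UMI in 293 and 257 Atp6v0d2 cells. Dcstamp, on chromosome 15 at 39745930 to 39760938, was at 109 and 155 CPM against 5.99 and 8.95, and after thinning had a UMI in 31.9% and 40.3% of Atp6v0d2 cells (56.4% and 63.2% before thinning). It was in 0 of 74 and 0 of 77 thinned Retnlg cells, with exact 95% upper limits of 4.86% and 4.68%. Car2, the carbonic anhydrase of osteoclasts, was at 24.3 and 15.02 CPM against 6.48 and 3.00. Mmp9 was at 694 and 640 CPM against 186 and 122, but neutrophils make it as well, and 85.1% and 90.9% of thinned Retnlg cells had an Mmp9 UMI.

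Several genes that define mature osteoclasts were at 0 or low. Calcr, the calcitonin receptor, and Oscar, an osteoclast co-receptor, had 0 UMIs in Atp6v0d2 cells of both libraries, where 3 UMIs would have been 0.28 (THP) and 0.259 (vehicle) CPM. Siglec15 had 1 UMI in each library. Itgb3, the vitronectin receptor chain that seals an osteoclast to bone, was low, at 3.17 and 2.07 CPM against 0.497 and 1.37 in comparison macrophages. Its vehicle value rests on few UMIs, and the counting interval includes the comparison level. Ocstamp, a fusion protein, was low but above comparison macrophages, at 1.40 and 3.97 CPM against 0.2 and 0.143. Tnfrsf11a, which encodes RANK, was at 49.8 and 71.5 CPM, below the 85.8 and 93.3 CPM of comparison macrophages. Nfatc1, the transcription factor that drives osteoclast differentiation, was at 10.5 and 15.5 CPM against 11.2 and 21.5. Genes of alveolar macrophages, which also carry Atp6v0d2, Itgax and Mmp12, were matched only in part. Car4, Krt79 and Cidec had 0 UMIs, Ear1 and Ear2 were under 1 CPM, and Siglecf was at 7.64 and 10.2 CPM. Pparg, Marco and Chil3 reached 10 CPM in 1 or both libraries. The 11 alveolar genes, Chil3 among them, summed to 670 (THP) and 768 (vehicle) CPM in Atp6v0d2 cells but to 6704 and 7211 CPM in Retnlg cells. The list is therefore not particular to macrophages here, and the part of free RNA was not tested. Of the 11 alveolar genes, Itgax among them, 1 (THP) and 2 (vehicle) were at least 2-fold higher than in comparison macrophages. At least 2-fold lower were 2 and 1. Over all tested genes 4.40% (THP) and 3.88% (vehicle) were at least 2-fold higher and 4.08% and 3.75% lower. The cells are therefore named here by their rule and leading genes, Atp6v0d2, Mmp12 and Gpnmb.

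**Figure D2:**
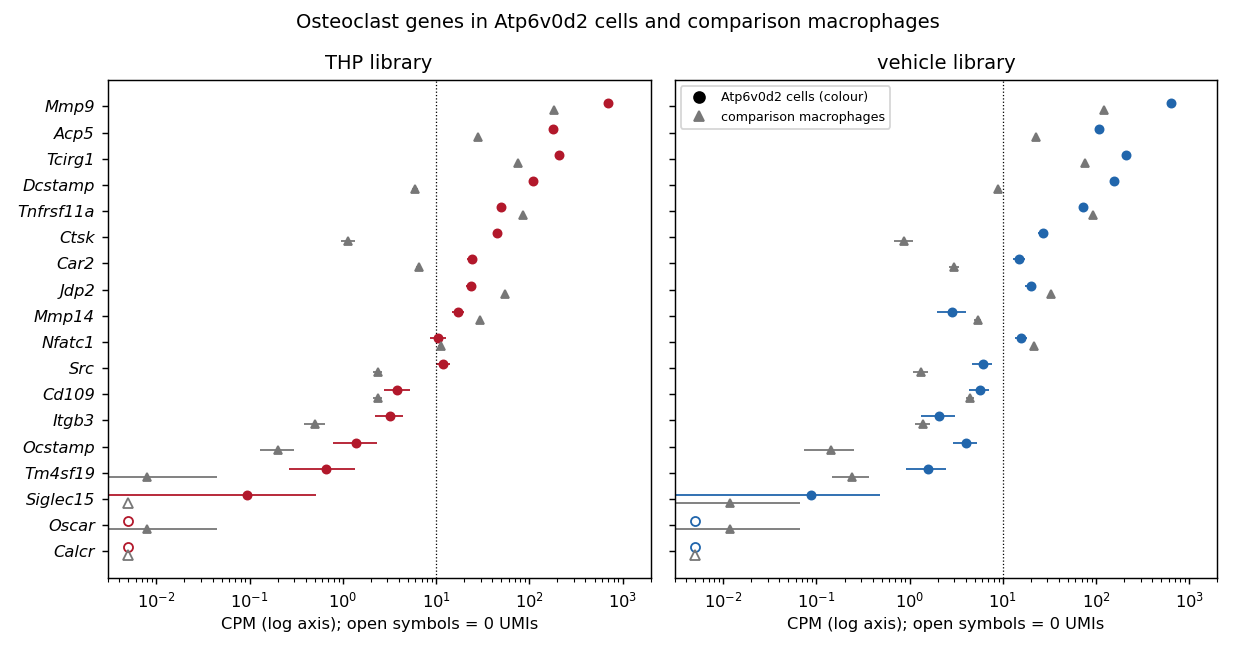
CPM (log axis) of 18 osteoclast genes in Atp6v0d2 cells (coloured circles) and comparison macrophages (grey triangles) of the THP library (left) and the vehicle library (right), with exact 95% Poisson intervals; open symbols at the left edge stand for 0 UMIs and the dotted line for 10 CPM. Acp5, Dcstamp, Ctsk, Car2 and Mmp9 lie to the right of the triangles in both libraries, Tnfrsf11a lies to the left, and Calcr and Oscar have 0 UMIs in Atp6v0d2 cells.

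Ctsk, cathepsin K, set a few cells apart. It was at 44.6 (THP) and 26.8 (vehicle) CPM in Atp6v0d2 cells against 1.14 and 0.859, but a UMI was found in only 49 and 48 cells. Cells with 3 or more Ctsk UMIs numbered 11 and 10 and held 91.0% and 84.5% of the group's Ctsk UMIs, up to 143 and 68 UMIs in 1 cell. This split was made after the values were seen, and the counts of UMIs are small. The median depth of these cells, 31986 and 39612.5 UMIs, was above that of the other Atp6v0d2 cells, 25172 and 28671.

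Some other osteoclast genes were higher in these few cells, and others were not. Acp5 was at 1182 CPM in the 11 THP cells and 137 CPM in the other 377, and at 376 CPM in the 10 vehicle cells and 97.2 in the other 362. A single cell held 40.7% and 63.8% of these Acp5 UMIs, and without it the levels were 758 CPM in 10 THP cells and 149.6 (95% Poisson interval 114 to 193) in 9 vehicle cells. Nfatc1 was at 42.5 against 9.21 CPM (THP) and 48.5 against 14.3 (vehicle), and Cd109, a surface protein of osteoclast precursors, at 33.0 against 2.62 and 27.7 against 4.75. Without the top cell of each gene Nfatc1 was at 25.1 and 22.8 CPM and Cd109 at 15.3 and 21.6, from 10 UMIs or fewer. The interval of the vehicle Nfatc1 value then ran from 10.4 to 43.3 CPM and included the 14.3 CPM of the other cells. Itgb3 was at 37.8 against 1.75 CPM in the THP library, with 81.2% of its UMIs in 1 cell (7.66 CPM from 3 UMIs without it), and at 6.92 against 1.88 in the vehicle library from 3 UMIs. Dcstamp went the other way, at 68.4 against 111 CPM and 83.1 against 157. Car2 was at 14.2 against 24.7 and 11.5 against 15.2, from 1 cell in each library, and Tnfrsf11a at 68.4 against 49.1 and 69.2 against 71.5. Calcr and Oscar stayed at 0 UMIs. In vehicle, 2 of the 10 cells had 5 or more UMIs of the collagen genes Col1a1 and Col1a2. Without them Acp5 was at 515 CPM and Nfatc1 at 63.8 CPM in 8 cells, but Mmp14 had 1 UMI left. Those 8 still included the cell with 63.8% of the Acp5 UMIs of the 10. They also included the cell with 57.1% of the Nfatc1 UMIs, so both values rest mostly on 1 cell. One THP cell with 62 Ctsk and 204 Acp5 UMIs had 0 Mmp12 UMIs and 1 Adgre1 UMI.

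**Figure D3:**
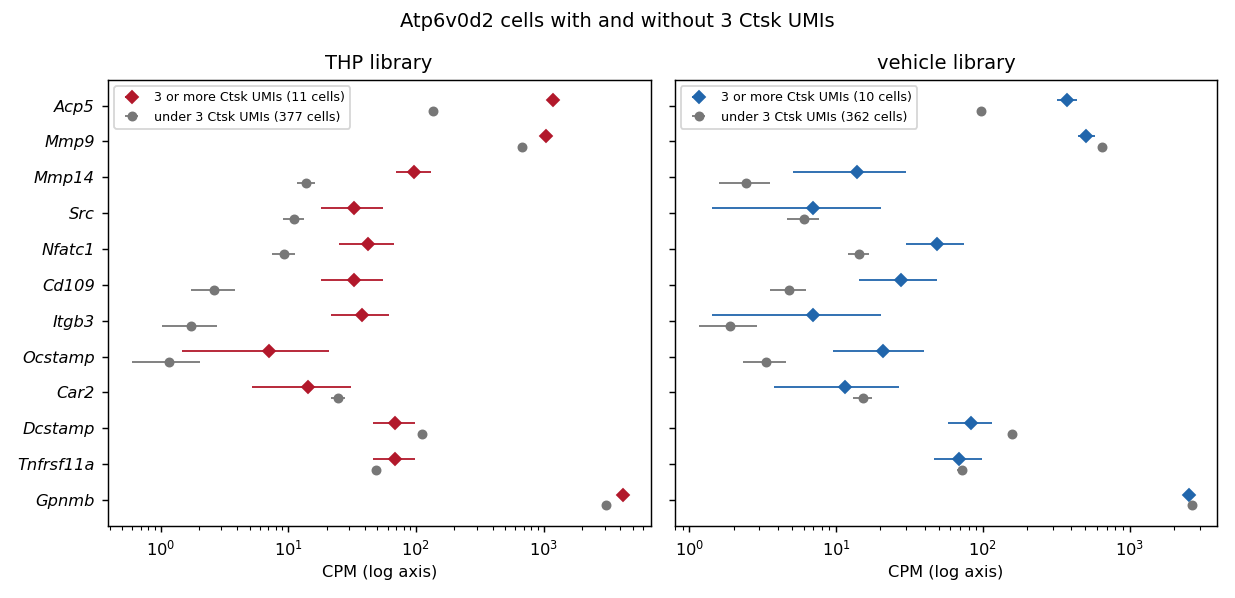
CPM (log axis) of 12 genes in Atp6v0d2 cells with 3 or more Ctsk UMIs (coloured diamonds) and with fewer (grey circles), in the THP library (left) and the vehicle library (right), with exact 95% Poisson intervals. Acp5, Nfatc1 and Cd109 lie to the right in the 11 THP and 10 vehicle cells, and Dcstamp lies to the left.

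THP was compared with vehicle within Atp6v0d2 cells. Of 7679 genes with at least 10 CPM in 1 or both libraries, 50 were at least 2-fold higher with THP (0.651%) and 194 at least 2-fold lower (2.53%), 3.18% in either direction, so 20.5% of the calls were higher. The median log2 ratio of all tested genes was -0.19, with 95% of genes between -1.004 and 0.46. Under TMM scaling the ratios were 0.19 larger, the counts became 75 higher and 67 lower, and 52.8% of calls were higher; all 50 higher calls and 67 of the 194 lower calls were shared. Ratios were also lower for longer transcripts: Spearman's rho across 7678 genes was -0.60, and over 5 equal groups by length 114 of the 194 lower calls fell among the longest genes and 28 of the 50 higher calls among the shortest. In comparison macrophages the same relation was -0.55, and its part in single genes was not tested beyond removing the trend, which gave 45 higher and 72 lower calls, 40 and 61 of them shared with those reported.

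**Figure D4:**
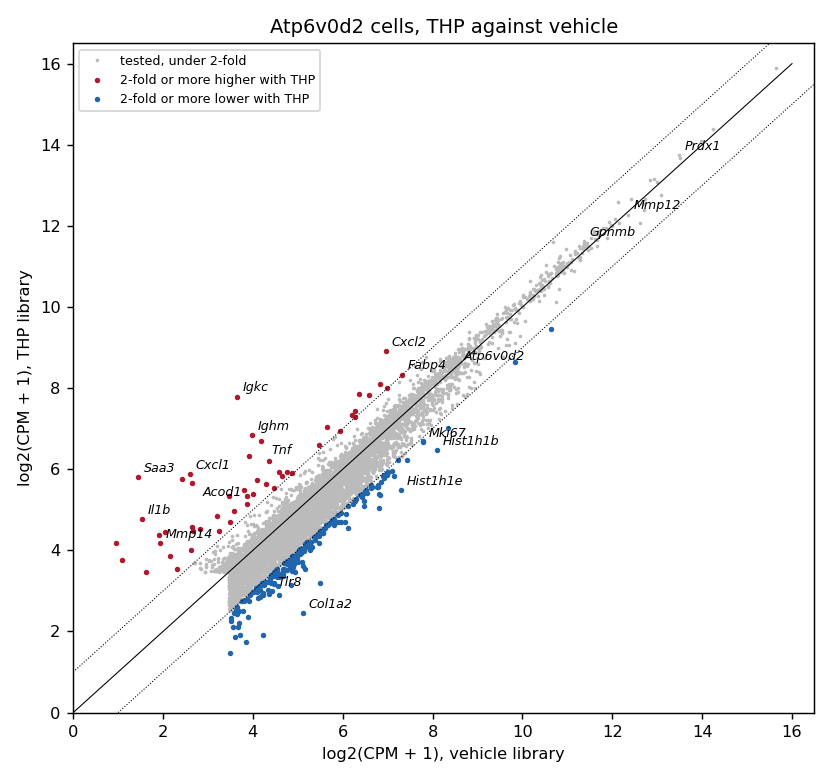
Level of each of 7679 tested genes in Atp6v0d2 cells of the vehicle library (x) and the THP library (y), both as log2(CPM + 1), with the line of equal level and dotted lines at 2-fold. The 50 genes at least 2-fold higher with THP are red, the 194 at least 2-fold lower are blue, and Atp6v0d2, Mmp12 and Gpnmb lie inside the dotted lines.

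For the genes that mark the group, which were chosen as high in both libraries, ratios are given as a description. The log2 ratio of Mmp12 was -0.07 (counting interval -0.09 to -0.06), of Gpnmb 0.24 (0.22 to 0.27), of Prdx1 0.25 and of Itgax -0.31. Dcstamp was lower with THP, at 109 against 155 CPM and a log2 ratio of -0.50 (-0.61 to -0.40). With TMM scaling Mmp12 was at 0.12, so its direction depends on scaling. Gpnmb was then at 0.44, Itgax at -0.12 and Dcstamp at -0.31. The intervals are exact, on the ratio of CPM without the added 1 and without TMM factors, and cover counting error only.

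Inflammatory genes stood highest with THP. Of 13 tested cytokines and chemokines, 13 had a ratio above 0 and 8 were at least 2-fold higher. Over all tested genes 31.4% were above 0 and 0.651% at least 2-fold higher. The median log2 ratio of the 13 was 1.25, beside -0.19 over all tested genes. Cxcl1, Il1b and Ccl12 reached 10 CPM only with THP, so the limit itself favours ratios above 0 among such genes. With no CPM minimum the median was 1.00. The median ran from 0.84 to 1.54 over the alternatives tried, lowest with at least 3 Atp6v0d2 UMIs and 3 per 10000. Tnf, the tumour necrosis factor, was at 102 CPM (95% Poisson interval 96.2 to 108) with THP and 17.0 CPM (14.7 to 19.5) with vehicle, a log2 ratio of 2.52. The neutrophil-attracting chemokine Cxcl1 was at 57.8 (53.3 to 62.5) and 5.09 CPM (3.88 to 6.57), a log2 ratio of 3.27, and Cxcl2 was at 482 and 125 CPM, 1.95. Il1b, interleukin-1 beta, was at 26.3 and 1.90 CPM and had a UMI in 67 THP and 12 vehicle cells. The monocyte-attracting Ccl7 and Ccl12 were at 72.6 against 19.6 and 21.1 against 3.11 CPM. Il12b had 0 UMIs in both libraries, and Il6 was at 0.186 CPM with THP and at 0 UMIs with vehicle. The difference lay in many cells for some genes: a thinned UMI of Tnf was present in 29.9% of THP and 5.99% of vehicle Atp6v0d2 cells, and of Cxcl2 in 61.6% and 25.3%. Before thinning these shares were 66.0% and 31.2% for Tnf and 81.7% and 46.2% for Cxcl2. Neutrophils make Tnf, Cxcl2, Il1b and Ccl3 themselves. Thinned Retnlg cells had a Tnf UMI in 33.8% and 10.4% and a Cxcl2 UMI in 56.8% and 2.60%, so those cells are no blank for these genes, and the part of free RNA was not tested.

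Cxcl1 and Cxcl2 are neighbours on chromosome 5, and their upstream sequences are shown because both were higher with THP. RefSeq's GRCm38.p6 promoter table gave the stretch from 250 to 31 bases before each start, both on the plus strand, at chr5:90890995-90891214 for Cxcl1 and chr5:90903649-90903868 for Cxcl2. Capitals mark matches to the NF-kB decamer, the binding motif of the NF-kB factors, on either strand; the 2 matches in each gene lie on opposite strands and overlap, starting 71 and 70 bases before the start of Cxcl1 and 97 and 96 before that of Cxcl2.
Cxcl1: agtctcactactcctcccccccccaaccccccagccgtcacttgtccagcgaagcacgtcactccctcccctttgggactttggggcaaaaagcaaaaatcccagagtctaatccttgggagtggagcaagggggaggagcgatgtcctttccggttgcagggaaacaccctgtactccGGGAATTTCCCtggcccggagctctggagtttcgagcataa
Cxcl2: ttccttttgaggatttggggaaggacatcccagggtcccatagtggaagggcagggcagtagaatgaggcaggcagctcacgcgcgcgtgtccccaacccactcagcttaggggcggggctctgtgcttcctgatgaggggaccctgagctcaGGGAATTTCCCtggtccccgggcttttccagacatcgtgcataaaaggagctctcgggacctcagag
The run GGGAATTTCCC is the same in both. Of the 15 genes with the highest ratios, 12 had an entry, and 2 of these 12 (16.7%) held the decamer, which was present in 6.34% of 32851 promoters of that length. Of the 15 markers 12 had an entry as well, and 2 of these, Mmp12 and Prdx1, held the decamer. A match describes letters only.

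NF-kB target genes showed the same direction. Of 25 tested, 24 had a ratio above 0 and 11 were at least 2-fold higher, with a median of 0.95. Over all tested genes 31.4% were above 0 and 0.651% at least 2-fold higher. With TMM scaling 18 of the NF-kB targets were at least 2-fold higher, beside 75 of all 7605 genes then tested. Some targets, such as Saa3, Acod1 and Nfkbiz, reached 10 CPM only with THP. With no CPM minimum the median was 0.96. Saa3, an acute-phase protein, was at 54.9 CPM (50.5 to 59.5) with THP and 1.73 (1.05 to 2.67) with vehicle, a log2 ratio of 4.36, in 78 and 10 cells. Acod1, which makes itaconate, was at 49.4 and 5.26 CPM (3.01), and Gpr84, a receptor for medium-chain fatty acids, at 78.8 and 14.2 (2.40). The inhibitors of the pathway were also higher: Nfkbia at 232 against 81.1 CPM, Nfkbie at 40.6 against 15.1 and Nfkbiz at 22.9 against 5.26. Malt1 was the one tested gene below 0, at 113 and 121 CPM and -0.10, which TMM scaling moves above 0. Tnf, Saa3 and Cxcl1 kept a log2 ratio of at least 1.99 under every alternative tried.

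Comparison macrophages had larger ratios for many of these genes. There 11 of 13 inflammatory genes were 2-fold higher with THP (median 1.92) and 19 of 26 NF-kB targets (median 1.45), and over all 7911 tested genes 0.961% were higher, 3.06% lower and 4.02% either. Ccl3 was at 227 against 94.8 CPM in Atp6v0d2 cells, a log2 ratio of 1.25, and at 182 against 23.1 CPM in comparison macrophages, 2.92. Ccl4 had 1.00 and 2.94, the survival gene Bcl2a1b, whose reads near-identical copies can share, 0.88 and 1.99, and Cxcl10 0.51 and 1.92. For Ccl3 and Bcl2a1b the vehicle level was higher in Atp6v0d2 cells, 94.8 against 23.1 and 152 against 38.0 CPM. Atf3, a stress-response factor, and Il1rn, the interleukin-1 receptor antagonist, were also higher there without THP, at 283 against 31.1 and 126 against 17.8 CPM, and their ratios with THP were 0.10 and 0.04 against 0.85 and 0.63. Other genes had the larger ratio in Atp6v0d2 cells, among them Saa3, 4.36 against 3.40, and Ccl12, 2.43 against 1.73. With 1 library per group no difference between the groups of cells could be tested.

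**Figure D5:**
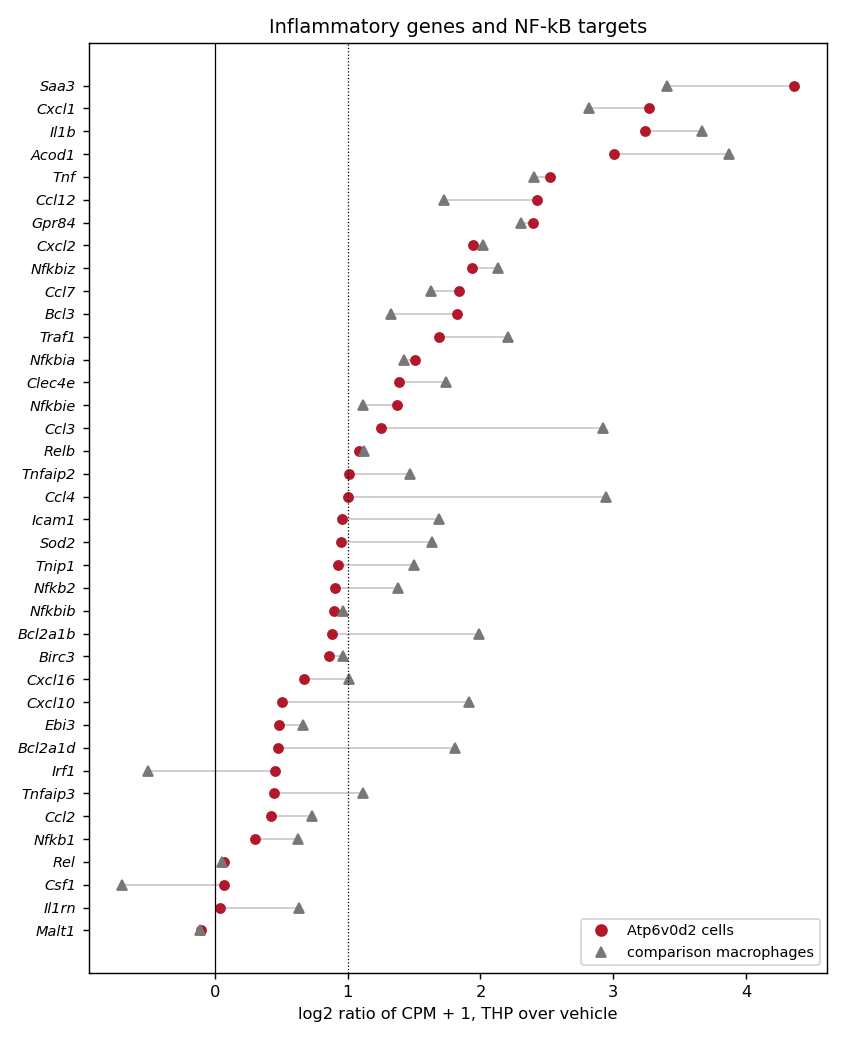
log2 ratio of CPM + 1, THP over vehicle, of the tested inflammatory genes and NF-kB targets in Atp6v0d2 cells (red circles) and comparison macrophages (grey triangles), with lines at 0 and at 2-fold. Tnf, Gpr84, Cxcl2 and Nfkbia lie close together in the 2 groups of cells, and Ccl3, Ccl4, Bcl2a1b, Bcl2a1d and Cxcl10 lie further right in comparison macrophages.

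Across all genes, 37 of the 50 higher calls (74.0%) were also called in comparison macrophages, which is 48.7% of the calls there. Of the lower calls 100 were shared, 51.5% and 41.3%. No gene was called in opposite directions.

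Receptors of the innate pathway were mixed. Tlr2 was at 43.8 CPM with THP and 12.9 with vehicle, a log2 ratio of 1.68, and Cd14, the co-receptor for bacterial lipopolysaccharide, at 421 and 285, 0.56. Tlr4 was lower with THP, at 13.5 and 27.6 CPM (-0.98), and Tlr8 at 6.99 and 20.6 (-1.44). The list of 12 tested genes had 1 call in each direction and a median of 0.03. Of 21 tested interferon-stimulated genes 1 was called, Isg15 at 59.3 against 28.1 CPM, and the median was 0.17.

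Osteoclast and lysosomal genes had medians closer to 0. Of 11 resorption genes 1 was 2-fold higher, the membrane protease Mmp14 at 17.1 against 2.85 CPM, and the median was 0.12. Acp5 had a log2 ratio of 0.72 (0.63 to 0.83) and Ctsk of 0.72, but 29.9% and 21.9% of the Ctsk UMIs lay in 1 cell of each library. Of 5 tested differentiation and fusion genes none was called and the median was -0.50, with Tnfrsf11a at -0.51 and Nfatc1 at -0.52. The medians of 16 V-ATPase genes and 24 lysosomal genes were 0.03 each, with no call, and Ctsl, cathepsin L, had the highest lysosomal ratio, 0.46. With TMM scaling the medians were 0.31 for resorption, -0.31 for differentiation and 0.22 for both V-ATPase and lysosome, and the tyrosine kinase Src of the differentiation list was then called higher. The resorption median turned to -0.07 without the 5% of cells with most UMIs, to -0.02 after thinning and to -0.01 where Mmp12 was also required. The differentiation median ran from -0.60 after thinning to -0.17 under the stricter Atp6v0d2 limit.

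Lipid and efferocytosis genes differed in part. Fabp4, a fatty-acid carrier, was at 320.3 CPM (309.7 to 331) with THP and 159 (152 to 166) with vehicle, a log2 ratio of 1.01, and a thinned UMI was present in 47.3% and 29.4% of cells (71.6% and 56.2% before thinning) and in none of the 74 and 77 Retnlg cells. Fabp5 had 0.93, Nr1h3, the liver X receptor alpha, 0.88 and Mfge8, a bridge to dying cells, 0.87, at 84.5 against 45.9 CPM. Cd36 was lower, at 1115.5 and 1713 CPM (-0.62). Of the 14 lipid-associated genes Fabp4 was the one 2-fold apart, and the median was 0.21. With TMM scaling Fabp5 passed as well, at 1.12, and the median was 0.40. MHC class II genes were below 0 in 6 of 6 tested, with a median of -0.66 (-0.47 with TMM scaling). H2-Eb1 was at 59.4 against 125 CPM and called, and H2-Aa at 101 against 182 was not. With TMM scaling none was called (H2-Eb1 at -0.87) and 5 of 6 were below 0. Over all tested genes only 31.4% were above 0, 2.53% were called lower and the median was -0.19. With no CPM minimum the MHC class II median was -0.40. Comparison macrophages had 7 of 7 tested MHC class II genes below 0, with a median of -0.78.

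Few genes of the cell cycle passed the 2-fold limit between THP and vehicle. Mki67, at 101 and 221 CPM (-1.12), and the centromere gene Cenpe, at 40.8 and 86.0 (-1.06), were the 2 of 16 G2 and M phase genes called lower, and no S phase gene of 16 was called. Ratios were below 0 for 13 and 15 of the 16 genes, with medians of -0.41 and -0.33, where 31.4% of all tested genes were above 0 and their median was -0.19. With TMM scaling neither Mki67 (-0.93) nor Cenpe (-0.87) passed, 10 and 11 of the 16 were below 0 and the medians were -0.22 and -0.14. Histone genes of the replication-dependent clusters, counted after the values were seen, stood out: 10 of 14 tested were at least 2-fold lower, also with TMM scaling, with a median of -1.45, and Hist1h1b was at 87.4 CPM (81.9 to 93.2) with THP and 273 (263 to 282) with vehicle. Comparison macrophages had a median of -1.44 and 10 such calls. Most of these RNAs lack a poly(A) tail, near-identical copies share reads, and their capture by poly(A) is uncertain.

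Single cells carried several of the most extreme ratios. Among the 15 highest, Igkc, Ighm and Jchain, which are antibody genes of B-lineage cells, had 87.1%, 85.2% and 94.6% of their THP UMIs in 1 and the same Atp6v0d2 cell, which had 16 Atp6v0d2 and 119 Mmp12 UMIs. Without the cell holding most of a gene's UMIs in each library the ratio of Igkc was 1.25, of Ighm 0.25 and of Jchain 0.05. Mgp and Igfbp7 had 80.6% and 81.6% in the THP cell with 62 Ctsk UMIs, and Mt3 had 79.2% in another. Among the 15 lowest, Col1a1, Col1a2 and Col5a1, collagen genes of stromal cells, had their vehicle UMIs mostly in 1 cell of 63818 UMIs, deeper than 98.8% of kept vehicle cells. Whether these droplets held 2 cells was not tested. The other 9 of the 15 highest, Saa3, Cxcl1, Il1b, Acod1, Tnf, Ccl12, Gpr84, Mmp14 and Cxcl2, kept ratios from 1.93 to 4.45 without their top cells.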

How the data were processed

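The deposited files hold raw UMI counts for every gene in every barcode, from 1 droplet library per group; the submitters' processing notes name Cell Ranger, STAR, bcl2fastq and mm10, and software version 3.1.0 is given per the file headers. The sources used here give no alignment parameters. Both matrices list 31053 genes. Barcodes with at least 500 genes, 1000 UMIs and at most 10% mitochondrial UMIs were kept. Doublets were not removed. The 388 THP and 372 vehicle Atp6v0d2 cells held 10733302 and 11587904 UMIs, so 3 UMIs in a library are 0.28 and 0.259 CPM.

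UMIs were summed over the cells of a group in each library (numpy 2.4.6, scipy 1.17.1, pandas 2.3.3), divided by the group's total to give CPM, and compared as the log2 ratio of CPM + 1. A gene was called with at least 10 CPM in 1 or both libraries and a ratio of at least 2-fold. Adding 1 understates the ratio of genes near 1 CPM. Intervals (Poisson, Clopper-Pearson, exact binomial for ratios) are 95% and cover counting error only. Thinning drew 5000 UMIs per cell without replacement. TMM and RLE factors came from edgeR 4.0.16. The rule for calls was tried on counts simulated from the summed vehicle profile with some genes changed 3-fold. That trial covered neither the choice of cells nor the counting of UMIs, and it held no spread between cultures. Gene coordinates are GENCODE M21. Named genes were the 15 highest and 15 lowest ratios among calls, the 15 markers, the 10 genes ranked most like Atp6v0d2, the genes of the rule and up to 6 genes of each list. The cells, lists and rules were chosen with earlier results of these data known. Mx2 and Clec7a were not analysed here. Aldoa entered only the list counts with TMM scaling, where its log2 ratio was 0.38 and it was not called.

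The lists covered osteoclast resorption, osteoclast differentiation, V-ATPase, lysosome, MiT/TFE factors, matrix proteases, lipid-associated, cholesterol, alveolar and general macrophage genes, growth factor signalling, inflammation, NF-kB, Toll-like receptors, interferon, alternative activation, phagocytosis, MHC class II, glycolysis, iron and oxidative stress, immediate early genes, cell cycle, and other marrow cells.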

Additional observations from a re-analysis of the deposited data

Results flagged for a closer look

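Of 296 list genes that reached 10 CPM in 1 or both libraries in each of the 2 groups of cells, 18 had a log2 ratio of THP over vehicle whose counting interval lay above 0 in one group of cells and below 0 in the other. For 5 of them this also held with TMM factors, and all 5 were above 0 in Atp6v0d2 cells and below 0 in comparison macrophages. Abca1, a cholesterol exporter, had 0.31 against -0.48. Irf1, a transcription factor of interferon responses, had 0.45 against -0.50. Chil3, a chitinase-like protein, had 0.12 against -0.45, the neutrophil collagenase Mmp8 0.20 against -0.78 and prosaposin, Psap, 0.07 against -0.31. None of these is 2-fold apart, and the difference between the groups of cells was not tested, since each group has 1 library per treatment. The alveolar list that holds Chil3 summed higher in Retnlg cells, at 6704 (THP) and 7211 (vehicle) CPM. The part of free RNA in the Chil3 and Mmp8 ratios was not tested.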

How the results depend on the processing

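The counts of THP calls depended on scaling, limits and depth. Higher calls were 50 and lower calls 194 as reported. They were 75 and 67 with TMM factors, 79 and 58 with RLE factors, 128 and 1340 at 1.5-fold, 99 and 324 with no CPM minimum, and 25 and 53 at 50 CPM or more. With at least 3 Atp6v0d2 UMIs and 3 per 10000 they were 65 and 307, with cells thinned to 5000 UMIs 117 and 800, and with the length trend removed 45 and 72. The CPM minimum changes which genes are tested, and the stricter limit and thinning leave fewer cells or UMIs. For scaling, the fold limit and the length trend the genes or UMIs are nearly or wholly the same and the ratios or the limit move. Otherwise the cause was not tested. The share of Atp6v0d2 cells was 3.04% in vehicle without the 5% of cells with most UMIs, then below that of THP, 1.67% (THP) and 1.85% (vehicle) under the stricter Atp6v0d2 limit, and 2.08% and 2.31% after thinning. Under the stricter limit the NF-kB median was 0.83, the inflammatory median 0.84 and the osteoclast differentiation median -0.17, and the last was -0.60 after thinning. The lipid-associated median was 0.40 with TMM and 0.42 with RLE factors. Against comparison macrophages, lower calls were 207 (THP) and 198 (vehicle) with TMM factors and 199 and 194 with RLE factors. At 1.5-fold, 579 and 582 were higher and 1242 and 1039 lower. With no minimum 545 and 502 were higher and 471 lower in vehicle, and at 50 CPM 160 and 160 were higher and 147 and 137 lower. Under the stricter limit 598 and 492 were lower. Without the top 5% of cells the ratios of Col1a1, Col1a2 and Col5a1 reversed to 1.22, 1.90 and 1.21, and under the stricter limit that of Col5a1 to 0.50. Leaving out each gene's top cell, requiring 0 Mmp12 UMIs in comparison macrophages and counting list calls with TMM factors were added after seeing the data. No paired analysis was possible because each group has 1 library. With 1 library per group, depth limits only the counting error, and the spread between cultures is not known.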

Other observations

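The remaining gene lists are described by their ratios of THP over vehicle in Atp6v0d2 cells, beside a median of -0.19 and 3.18% called in either direction over all tested genes. Nothing particular to a list is read from its calls. Of 10 tested matrix proteases and inhibitors 1 was higher, Mmp14, and the median was 0.16. Of 8 immediate early genes 1 was higher, Ier3 at 1.62, and the median was 0.07. No gene was called among 14 macrophage genes (median -0.04), 13 genes of growth factor and RANK signalling (-0.16), 14 phagocytic receptors and bridges (-0.10) or 5 genes of alternative activation (-0.10). The same held for 4 MiT/TFE factors (-0.32), 5 alveolar macrophage genes (-0.31), 8 genes of cholesterol efflux (-0.16), 15 of cholesterol synthesis (-0.13), 18 of glycolysis and hypoxia (-0.02) and 12 of iron and oxidative stress (0.11). With TMM scaling Mvd, Nr1h3 and Mfge8 of these lists were called higher.

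Markers of other marrow cells were mostly low. Neutrophil genes had no call among 7 tested (median 0.10). Among 6 monocyte genes Ccr2 was lower, at 21.8 against 46.3 CPM, and the median was -0.46. With TMM scaling Ccr2 was at -0.87 and not called. Progenitor genes had 3 lower calls among 5 tested (1 with TMM scaling) and a median of -1.02, with summed levels of 202 (THP) and 327 (vehicle) CPM. Of 3 stromal genes 2 were lower, Col1a1 and Col1a2, from few cells, with summed levels of 33.1 and 76.3 CPM. The B-lineage list summed to 118 and 20.3 CPM, mostly Ighm of 1 THP cell, and the T and NK list to 247 and 298 CPM, nearly all Il7r. Platelet factor Pf4 had a ratio of 0.93 (1.12 with TMM scaling). Dendritic genes summed to 1.49 and 1.90 CPM, mast cell and basophil genes to 4.19 and 4.57 and erythroid genes to 3.35 and 1.55. Their part in any ratio of the text was not tested.

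Among barcodes that the depth and mitochondrial limits left out, 7 of 1070 in the THP library and 3 of 606 in the vehicle library met the Atp6v0d2 rule.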
